A study of Homo sapiens with 6 samples.

Results

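A set of 1471 autosomal windows of 1 kb carried little CpG methylation in conventional human embryonic stem cells and a substantial level in reset cells. The windows were non-overlapping and counted from the first base of each GRCh37 chromosome. A window was kept when every one of the 6 libraries had at least 10 calls in it, a call being 1 read of 1 CpG cytosine, and 1978613 windows were kept. It was a member when the mean level of the conventional libraries was under 20% and each reset library was at 30% or more. Members were 0.0743% of the kept windows and 4.55% of the 32299 windows under 20% in conventional cells, here called low windows. The levels of both groups chose the members, so the rise itself is given as a description without a test.

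The established human embryonic stem cell line H9 was profiled by whole-genome bisulfite sequencing in 3 libraries per group. Conventional cells were grown in FGF/KSR medium (fibroblast growth factor with knockout serum replacement). Reset cells came from H9 cells with doxycycline-inducible NANOG and KLF2 transgenes, and after doxycycline withdrawal they were held in t2iL+Gö, which combines the MEK inhibitor PD0325901, the GSK3 inhibitor CHIR99021 at a titrated dose, LIF and the PKC inhibitor Gö6983. Both were kept on mouse embryonic fibroblast feeders, and a removal of feeder DNA before extraction is not given in the sources used here. The paper calls the libraries biological replicates, and the labels do not say whether they came from separate derivations. Libraries held 67650201 to 93623112 autosomal calls, of which 84.3 to 84.6% were methylated in conventional and 29.5 to 30.3% in reset cells, so the members lie against a genome that lost methylation as a whole.

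DNA methylation in mammals sits mainly on the cytosine of CpG dinucleotides, and most CpGs of a somatic or conventional stem cell genome carry it. CpG islands (CGIs), dense clusters of CpGs at gene starts, usually do not. Genes of developmental transcription factors often lie in long unmethylated domains that extend well past the start of the gene, and in embryonic stem cells such domains are typically bound by Polycomb proteins.

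The sequences below are shown because they carry the contrast in the most compact form. They are the 300 bases with most CpGs within 5 of the most strongly gaining windows and, for LHX2, EN1 and POU3F3, within the nearest low window picked for staying under 10% in each reset library. Annotated untranslated regions were avoided. All are GRCh37 plus strand, with CpGs in capitals.
NR2F2 gaining window, chr15:96877414-96877713: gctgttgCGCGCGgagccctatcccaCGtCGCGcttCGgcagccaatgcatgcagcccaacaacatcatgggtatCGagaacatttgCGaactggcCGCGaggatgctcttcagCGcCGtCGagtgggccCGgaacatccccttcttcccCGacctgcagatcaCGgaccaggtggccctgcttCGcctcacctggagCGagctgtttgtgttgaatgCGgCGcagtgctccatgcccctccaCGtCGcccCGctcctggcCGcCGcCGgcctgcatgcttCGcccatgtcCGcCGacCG
IRX2 gaining window, chr5:2740215-2740514: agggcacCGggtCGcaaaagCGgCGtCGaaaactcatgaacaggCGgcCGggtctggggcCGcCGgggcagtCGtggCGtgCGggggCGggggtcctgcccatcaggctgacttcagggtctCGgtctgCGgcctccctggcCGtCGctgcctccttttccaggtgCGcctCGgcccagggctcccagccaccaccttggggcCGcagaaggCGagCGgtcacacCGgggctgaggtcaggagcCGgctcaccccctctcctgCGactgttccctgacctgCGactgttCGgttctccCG
LHX2 gaining window, chr9:126777569-126777868: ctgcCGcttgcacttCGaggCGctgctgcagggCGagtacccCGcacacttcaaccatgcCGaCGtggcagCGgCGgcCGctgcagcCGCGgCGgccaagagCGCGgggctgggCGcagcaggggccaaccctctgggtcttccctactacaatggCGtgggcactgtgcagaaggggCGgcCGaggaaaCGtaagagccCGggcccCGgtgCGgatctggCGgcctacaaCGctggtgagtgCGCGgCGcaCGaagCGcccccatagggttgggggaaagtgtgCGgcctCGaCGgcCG
LHX2 low neighbour, chr9:126774628-126774927: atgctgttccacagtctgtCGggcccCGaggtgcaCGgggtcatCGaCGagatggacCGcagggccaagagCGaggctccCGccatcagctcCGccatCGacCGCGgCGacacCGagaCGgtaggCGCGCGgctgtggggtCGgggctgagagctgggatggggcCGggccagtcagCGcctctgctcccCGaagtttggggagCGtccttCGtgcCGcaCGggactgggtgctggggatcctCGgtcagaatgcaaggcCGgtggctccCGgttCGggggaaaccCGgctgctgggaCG
EN1 gaining window, chr2:119606014-119606313: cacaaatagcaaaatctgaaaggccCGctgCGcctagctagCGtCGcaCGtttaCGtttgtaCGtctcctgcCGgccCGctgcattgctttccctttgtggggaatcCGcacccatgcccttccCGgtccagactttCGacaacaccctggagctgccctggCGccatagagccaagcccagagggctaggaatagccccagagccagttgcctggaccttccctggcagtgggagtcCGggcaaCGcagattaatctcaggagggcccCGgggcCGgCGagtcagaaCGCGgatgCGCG
EN1 low neighbour, chr2:119604024-119604323: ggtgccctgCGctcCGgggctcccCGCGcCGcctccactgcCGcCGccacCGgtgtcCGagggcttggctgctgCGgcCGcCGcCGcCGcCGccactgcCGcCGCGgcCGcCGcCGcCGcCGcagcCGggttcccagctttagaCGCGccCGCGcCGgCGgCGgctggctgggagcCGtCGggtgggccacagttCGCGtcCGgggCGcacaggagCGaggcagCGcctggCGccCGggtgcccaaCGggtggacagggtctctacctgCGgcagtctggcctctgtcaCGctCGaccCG
POU3F3 gaining window, chr2:105480377-105480676: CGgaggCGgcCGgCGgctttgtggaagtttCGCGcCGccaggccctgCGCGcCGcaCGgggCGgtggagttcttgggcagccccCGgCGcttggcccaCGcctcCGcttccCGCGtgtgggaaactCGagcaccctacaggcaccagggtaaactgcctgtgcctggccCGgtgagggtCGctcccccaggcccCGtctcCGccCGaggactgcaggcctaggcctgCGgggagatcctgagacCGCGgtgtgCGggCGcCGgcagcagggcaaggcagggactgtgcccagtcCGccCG
POU3F3 low neighbour, chr2:105473164-105473463: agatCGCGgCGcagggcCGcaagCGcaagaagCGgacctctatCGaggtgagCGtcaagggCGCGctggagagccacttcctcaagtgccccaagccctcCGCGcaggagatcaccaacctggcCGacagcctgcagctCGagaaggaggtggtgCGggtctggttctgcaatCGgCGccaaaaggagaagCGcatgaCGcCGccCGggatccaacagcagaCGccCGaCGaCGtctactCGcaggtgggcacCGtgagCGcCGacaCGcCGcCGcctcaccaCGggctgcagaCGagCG

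In the NR2F2 stretch, which is coding sequence of an orphan nuclear receptor, the conventional libraries were at 0%, 8.33% and 2.60%. The reset libraries were at 95.2%, 94.7% and 61.4%, on 42, 19 and 44 calls. The LHX2 gaining stretch, which crosses an exon end of this LIM homeobox gene, was at 0.848%, 4.55% and 0% in conventional and at 72.6%, 85.7% and 90.3% in reset libraries. Its neighbour 3 kb upstream, at the start of the coding sequence, was at 4.59%, 2.56% and 8.45% in reset libraries. The gaining stretch held 34 CpGs and the low neighbour 32. For EN1 the gaining stretch upstream of the gene held 22 CpGs and the coding neighbour 46, and the reset levels were 68.3%, 82.6% and 82.2% against 0%, 1.20% and 0%, the last of these on 8 calls. For POU3F3, a neural POU factor, the gaining stretch held 32 CpGs and the coding neighbour 35. The low neighbour of NR2F2, which is not printed, was poorer in CpGs, with 10 against 31 in the gaining stretch, and was at 0%, 2.22% and 3.85% in reset libraries. Low neighbours thus held fewer, about as many or more CpGs than the gaining stretch.

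Over all members, the median level was 5.77%, 5.95% and 5.98% in the conventional libraries and 44.4%, 45% and 45.6% in the reset libraries. The mean over members was 7.78% ± 0.095 in conventional and 46.4% ± 0.451 in reset cells (SD over library means, n = 3 each). The median rise of a member was 37.8 points. In 1467 members, as the rule all but fixes, each reset library was above each conventional library, a pattern that 0.391% of all kept windows showed. Most kept windows were too high in conventional cells to show it, and among the low windows, members included, 7050 or 21.8% did. The mean reset level was 30 to under 40% in 385 members, 40 to under 50% in 624, 50 to under 60% in 351, 60 to under 70% in 102 and 70% or more in 9. Of the members, 637 were under 5% in conventional cells, and 10 had no methylated call in any conventional library.

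**Figure D1:**
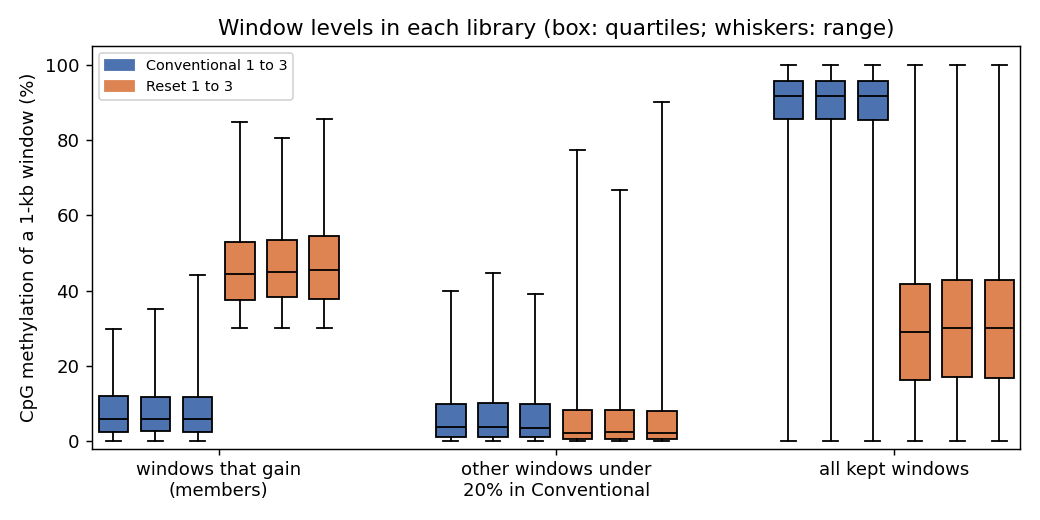
CpG methylation (%) of 1-kb windows in each of the 6 libraries, for members, for the other windows under 20% in conventional cells and for all kept windows. Boxes are quartiles with the median and whiskers the full range. Member medians are 5.77 to 5.98% and then 44.4 to 45.6% in the reset libraries, while those of the other low windows are 3.53 to 3.77% and 2.12 to 2.31%.

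Across all kept windows the mean level fell from 87.6% ± 0.0778 in conventional to 30.1% ± 0.604 in reset cells (SD, n = 3), with a median of 30.5% in reset cells. Members, held at 30% or more by the rule, had mean reset levels of 30.8 to 74.9%. Of all kept windows, 82.5% had a lower mean reset level than the median member, a position that the rule largely sets. The other 30828 low windows had means of 6.16% in conventional and 6.24% in reset cells, but single windows among them reached a mean reset level of up to 55.6%. Of all low windows, 54.6% had a lower reset than conventional mean.

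Because each reset library helped to choose the members, the set was chosen again with 1 library left out and read in that library. Windows chosen without reset replicate 1, 2 or 3, with the call minimum still asked of all 6 libraries, numbered 1770, 1787 and 1795. Their medians in the library left out were 41.2%, 42.3% and 42.0%, and 83.1%, 82.3% and 82.0% of them were at 30% or more there. Only 3.50%, 3.30% and 4.46% were under 20%. In a left-out conventional library the medians were 5.88%, 6.13% and 6.02%.

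The spread of the 3 reset libraries within a member had a median SD of 6.25 points. The median binomial SD given by the number of calls was 5.48 points. These are not matched measures, because the first rests on 3 values per member and the rule cuts reset levels at 30%. The second treats calls as independent, although 1 read can give calls at several CpGs, so it can understate counting error. Across the members, Pearson's r between pairs of reset libraries was 0.429 to 0.458 and between pairs of conventional libraries 0.626 to 0.690. These correlations over 1471 windows are descriptions, since neighbouring windows are not independent and the rule truncates both levels. Median calls per member were 99 to 107 over the conventional and 75 to 87 over the reset libraries, and 1257 members had 30 calls or more in each library. Intervals for single windows cover counting error only.

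Near the thresholds the set shades into its surroundings. PRRX1, a homeobox gene of limb and craniofacial mesenchyme, was just inside with reset levels of 30%, 44.3% and 37.8%. An exon window of NKX2-1, a thyroid, lung and forebrain regulator, was just outside: its reset levels were 67.2%, 55.8% and 29.9%. A window in WT1, a kidney and gonad regulator, was also just outside at 29.9%, 53.5% and 45.6%. At the other threshold an intron window of OPCML, a neural cell adhesion gene, was inside with a conventional mean of 19.98%, and one at the promoter of BLVRA, biliverdin reductase A, was outside with 20.01%.

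In 4 members the groups overlapped, and these were chosen for mention after their values were seen. They lie at the promoter of NKX1-1, in ATP8A2, and nearest to KLHL29 and ALOX12B. The NKX1-1 window was at 12.8%, 11.8% and 33.8% in conventional and 32.9%, 36.5% and 50% in reset libraries, so conventional replicate 3 alone reached into the reset range.

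The 10 named members with the largest rise, at most 1 per 100-kb bin and with at least 30 calls in each library, lay at or nearest to IRX2, ANXA2R, NR2F2, LHX2, POU3F3, SIM1, PITX1, EN1, HOXD3 and SPAG6. Of these, 8 are transcription factor genes, although the windows of IRX2 and POU3F3, like those of ANXA2R and SPAG6, lie outside the gene and its promoter and are named for the nearest coding start. The NR2F2 window, chr15:96877001-96878000, lies in a coding exon 3572 bp downstream of the start and inside a stretch of 29 adjacent low windows. It measured 2.83%, 5.63% and 1.80% in conventional and 84.7%, 73.1% and 60.9% in reset libraries. The groups were far apart, although the reset libraries also differed from each other by more than 20 points.

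The IRX2 window, chr5:2740001-2741000, is intergenic with its centre 11290 bp from the start of this Iroquois homeobox gene. It was at 0%, 2% and 2.89% in conventional and at 80.95%, 60.8% and 77.6% in reset libraries. The window of LHX2, chr9:126777001-126778000, was at 0.599%, 2.10% and 0% against 65.7%, 74.5% and 70.1%. In both, the lowest reset library was more than 50 points above the highest conventional one.

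SIM1, a bHLH-PAS factor of hypothalamic neurons, gained in an intron window, chr6:100906001-100907000, from 2.86%, 1.96% and 2.11% to 67.8%, 80.6% and 64.8%. PITX1, a hindlimb homeobox factor, gained in an exon window, chr5:134363001-134364000, and its reset libraries were the most uneven of the 10, at 72.9%, 56.4% and 85.7%. EN1, a midbrain and limb patterning gene, was the only one of the 10 with the window at a coding promoter, chr2:119606001-119607000. The window was centred at -1277 bp from the start, so it overlapped the promoter only in part. It was at 3.23%, 6.02% and 2.27% in conventional and 63.0%, 69.6% and 77.3% in reset libraries.

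HOXD3, an anterior HOX gene, gained in an exon window, chr2:177036001-177037000, that also lies in the noncoding gene HAGLR, with reset levels of 66.4%, 64.5% and 71.2%. The POU3F3 window, chr2:105480001-105481000, lies in a noncoding gene and 9928 bp from the coding start, with reset levels of 69.9%, 66.7% and 71.7%. The starts of ANXA2R and SPAG6, the 2 that are no transcription factor genes, lay 47920 and 10924 bp away. The ANXA2R window, chr5:42992001-42993000, overlaps the promoter of an unnamed noncoding gene and rose from 1.49%, 1.85% and 1.85% to 61.04%, 78.5% and 74.3%.

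In most members both strands and both 500-bp parts carried methylation, which the rule largely sets because the same reset calls chose the members. Pooled over the reset libraries, 1463 of the 1464 members with at least 10 calls on each strand were at 20% or more on both strands, the exception being the window nearest to KLHL29. Across these 1464 members Pearson's r between the strands was 0.412. Of 1449 members with at least 10 pooled reset calls in each 500-bp part, 1236 were at 30% or more in both parts, and the others were under 30% in at least 1 part. A single member had a part under 10%: a window in SALL2, a spalt-family zinc finger gene, at 50.4% in the first part and 5.56% in the second. Averaged over all members in 100-bp steps, the reset level was 43.9% to 48.7% in every library, which does not describe the pattern within single members.

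At the single CpGs with enough calls the reset level was mostly intermediate. Among 9865 member CpGs with at least 10 pooled reset calls the median was 45.5%. Of these, 34.1% lay at 40 to under 60%, 6.89% at 80% or more and 4.71% under 10%. Among 18138 CpGs with as many pooled conventional calls the median was 0% and 74.6% were under 10%.

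The level followed the bases beside the CpG. CpGs with C or G on both sides were at 49.3%, 49.9% and 50.2% in the reset libraries over members, and CpGs with A or T on both sides at 38.7%, 40.02% and 39.7%. Over all autosomal CpGs of the same libraries the values were 32.8 to 33.1% and 24.8 to 25.8%, so the difference was not particular to the members. In conventional cells the order was the other way round, with 6.03 to 6.25% against 7.12 to 7.27% over members and 80.4 to 80.8% against 85.5 to 85.7% over all autosomal CpGs.

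The members were clustered. They formed 1009 runs of adjacent windows, 714 members lay in runs of 2 or more, and the longest run had 11. Another member lay within 10 kb of 66.5% of them. They fell in 846 of the 17947 stretches of adjacent low windows, and the stretch around a member had a median length of 5 kb, against 2 kb for the other low windows. The member share of low windows was 3.09% in stretches of 1 kb, 1.58% in those of 2 kb, 12.1% in those of 5 to 9 kb and 20.3% in those of 10 kb or more. Within stretches of at least 3 kb, 10.9% of the inner windows and 5.96% of the edge windows were members. Longer stretches have more inner windows for each edge, so position was not separated from stretch length here. By chromosome the share ran from 1.02% on chromosome 19, rich in zinc finger genes, to 9.52% on chromosome 21, and chromosome 2 held the most members, 170.

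The level fell away from members in reset cells and rose away from them in conventional cells. Windows directly adjacent to a member averaged 22.9% and 24.1% in conventional and 38.4% and 38.2% in reset cells, upstream and downstream in chromosome order. Of these adjacent windows 32.8% and 32.6% were themselves members. At 2 kb the groups had nearly equal means, 33.4 and 33.9% in conventional and 33.5 and 33.7% in reset cells. At 10 kb conventional cells were at 59.0 to 59.6% and reset cells at 31.1 to 31.6%. Around other low windows the adjacent windows were at 37.5% in conventional and 15.04 to 15.06% in reset cells. The dip seen around those windows in reset cells was absent around members, where the member itself, as chosen, was the highest point.

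**Figure D2:**
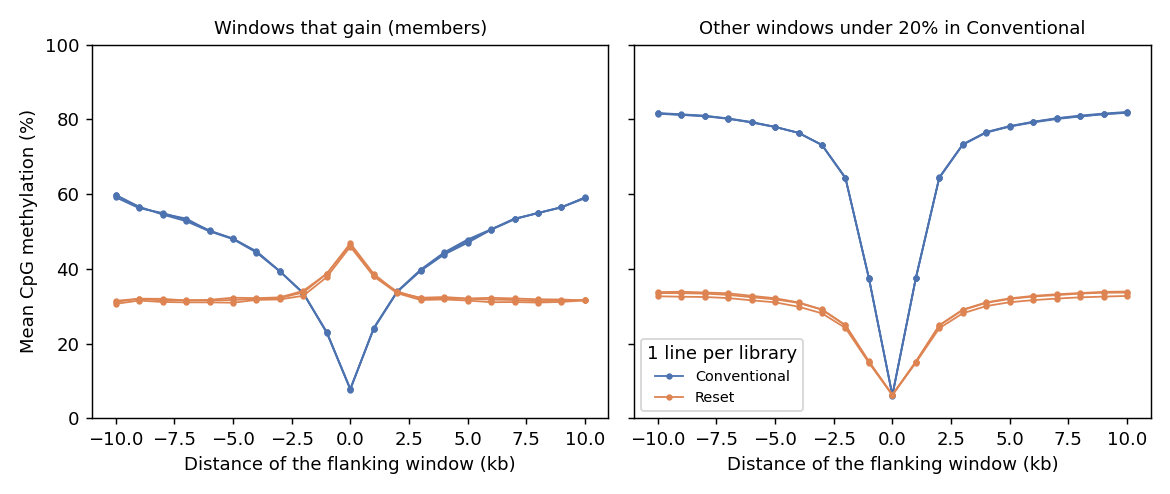
Mean CpG methylation (%) of windows up to 10 kb on either side of a member (left) or of another low window (right), 1 line per library. In reset libraries the members stand at 45.9 to 46.8% over flanks near 31%, while the other low windows dip to 6.20 to 6.29%.

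By sequence, members were CpG-rich but less so than other low windows. They held a median of 38 CpGs, against 58 in other low windows and 9 in all kept windows, and the median GC content was 54.8%, 59.1% and 41.4% in the same order. The median observed to expected CpG ratio was 0.522, 0.678 and 0.216. A long CGI (predicted from sequence: 500 bp or longer, GC of 55% or higher, ratio above 0.65) overlapped 65.8% of members, 83.2% of other low windows and 3.56% of kept windows. At least 90% of the window was covered by such a CGI in 19.9% of members and 37.3% of other low windows. The member share of low windows was highest, 8.61%, at 11 to 20 CpGs per window and lowest, 1.09%, at 81 or more. Among members the median reset level was 43.2% at 11 to 20 CpGs and 48.7% at 81 or more.

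Members lay beside gene starts more than on them. A promoter of a coding gene, reaching 1000 bp before and 500 bp past the start, overlapped 11.96% of members and 57.2% of other low windows. Any overlap counted, so a window called a promoter window here can lie mostly outside the promoter. Exons of coding genes held 21.4% of members against 11.9% of other low windows, introns 18.9% against 9.82%, and 22.5% against 8.30% were intergenic. The median distance to the nearest coding start was 6344 bp for members, 821 bp for other low windows and 67509 bp for all kept windows. Of the low windows at coding promoters 0.989% were members, compared with 7.90% in exons of coding genes, 8.41% in introns and 11.5% in intergenic sequence. The share was 6.33% where only the promoter of another gene was overlapped and highest, 12.7%, in bodies of other genes.

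Genes were then grouped by lists of families, and those named below without a promoter window were chosen after their values were seen. The transcription factor lists together (HOX, other homeobox, PAX, SOX, forkhead, T-box, GATA, ZIC and GLI, nuclear receptor and tissue-restricted bHLH genes) held 385 autosomal symbols. A window was assigned to the coding gene whose promoter or body it overlapped, and otherwise to the nearest start. These lists took 726 members, 49.4%, and 9.57% of the other low windows. Factors of families outside the lists count among the other coding genes, such as TFAP2B with 14 assigned members and TFAP2A and OSR1 with 8 each. A window centred within 1 kb downstream of a listed factor's start was a member in 8.54% of low windows, and 5 to 10 kb downstream in 29.1%. For other coding genes the shares were 0.526% and 7.11%. The mean reset level over all low windows, members or not, was 9.11 to 9.40% within 1 kb downstream of the listed factors' starts and 25.3 to 25.9% at 5 to 10 kb, with 2.59 to 3.05% and 5.92 to 5.96% in conventional cells. For other genes it was 2.93 to 3.14% and 11.8 to 12.3%, with 4.35 to 4.62% and 8.01 to 8.18% in conventional cells.

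**Figure D3:**
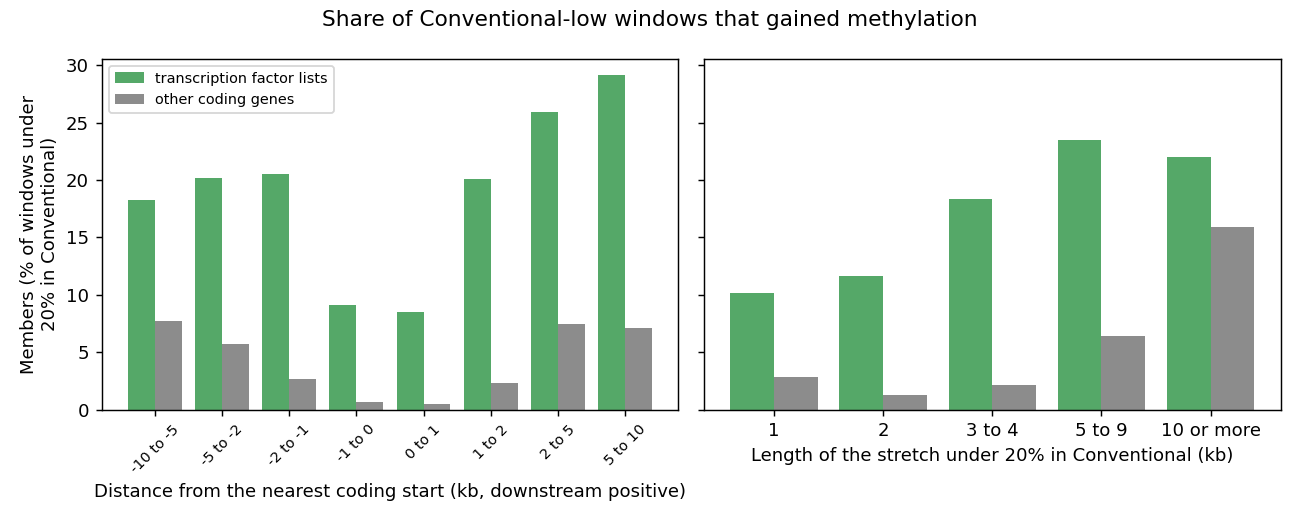
Members as a percent of low windows, by distance of the window centre from the nearest coding start (left, kb) and by length of the low stretch (right, kb), for genes of the transcription factor lists and other coding genes. Both gene groups have their lowest share within 1 kb of the start, 8.54 to 9.09% and 0.526 to 0.627%, and the listed factors have the higher bar in each class.

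Both gene groups were also split by the length of the low stretch. In stretches of 1 kb, 10.2% of low windows assigned to listed factors and 2.85% of those of other genes were members. In stretches of 10 kb or more the shares were 22.01% and 15.9%, over 1413 and 547 low windows. In between, the shares were 11.6% and 1.26% at 2 kb, 18.4% and 2.15% at 3 to 4 kb, and 23.5% and 6.41% at 5 to 9 kb. The listed factors had the higher share in each class, and their share did not rise further past 9 kb. The other genes are no group free of transcription factors, since unlisted families such as TFAP2 are among them.

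Counted by gene, 147 of 13041 coding genes with a low window at the promoter had a member there, 1.13%. Within 5 kb of the gene body the count was 586 of 14671, 3.99%. For the transcription factor lists these counts were 50 of 337 and 170 of 354, 14.8% and 48.0%. Long genes and genes with many low windows have more chances to hold a member, so the counts compare genes as they are and not windows.

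**Figure D4:**
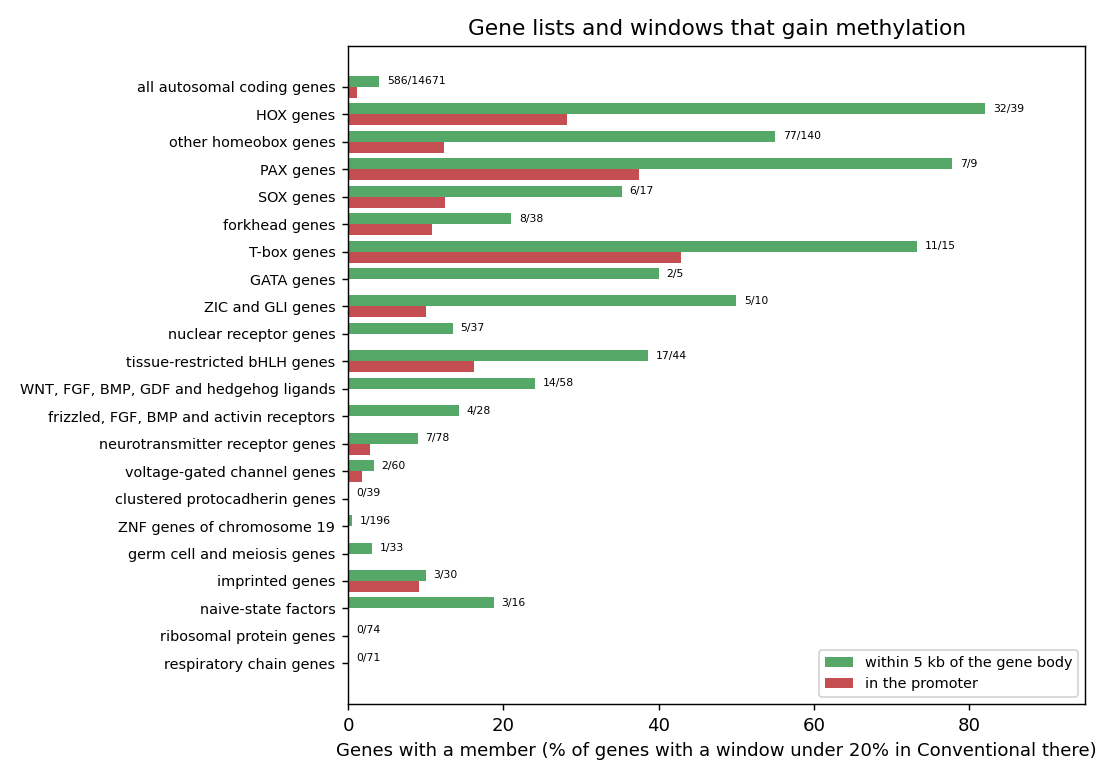
Percent of genes in each list with a member within 5 kb of the gene body (green, with counts) or in the promoter (red), out of genes with a low window there. HOX, PAX and T-box genes have the highest bars, 82.1%, 77.8% and 73.3%. Ribosomal protein, respiratory chain and clustered protocadherin genes are at 0, beside 3.99% over all coding genes.

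HOX genes, which set position along the body axis, had a member within 5 kb of the body in 32 of 39 and in the promoter in 11 of 39. The HOXD4 promoter window, chr2:177016001-177017000, measured 3.41%, 3.09% and 3.66% in conventional and 74.0%, 50.3% and 67.4% in reset libraries. At HOXD12 the promoter window, centred 978 bp downstream of the start, was at 62.3%, 57.3% and 59.9% in reset libraries. The HOXA7 window, centred at -1207 bp from the start, began from a higher level, 15.4%, 16.8% and 16.2%. It reached 54.9%, 59.7% and 56.3%. Since HOX genes stand close together, a member within 5 kb can count for several of them. The 100-kb bin of HOXD9 to HOXD13 and EVX2 held 20 members among 52 low windows, and that of HOXA9 to HOXA13 and EVX1 held 16 among 54.

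Among the other homeobox genes 77 of 140 had a member within 5 kb of the body and 17 of 137 in the promoter. NKX2-5, the cardiac homeobox factor, had a promoter window centred at -1292 bp from the start. It was at 5.21%, 4.29% and 3.09% in conventional and 72.1%, 51.4% and 62.9% in reset libraries. LHX9, a gonad and limb factor, was at 0.922%, 0.662% and 0% against 65.9%, 61.9% and 56.9%. Its window was centred 999 bp downstream of the start and met the promoter only at its edge. GSX2, which patterns the ventral forebrain, was at 2.54%, 0% and 0% against 55%, 52.1% and 74.2%. None of the 3 overlapped between groups.

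Of the PAX genes, paired-box regulators of kidney, eye, neural crest and muscle, 7 of 9 had a member within 5 kb of the body. At PAX8, a thyroid and kidney factor, the window centred on the start itself gained from 5.43%, 15.8% and 7.14% to 55.3%, 57.0% and 53.2%. T-box genes had one in 11 of 15, and 6 of 14 in the promoter. The promoter window of TBX15, a factor of limb and skin, was at 0%, 0% and 0.758% in conventional and 50.9%, 70.97% and 64.0% in reset libraries. The mesoderm gene TBXT (brachyury) and the endoderm and mesoderm gene EOMES were also among the 11, with a highest member at 53.6%, 45.8% and 48.7% for TBXT and at 33.3%, 43.1% and 32.1% for EOMES in reset libraries.

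SOX genes had a member in 6 of 17 and forkhead genes in 8 of 38. SOX9, a cartilage and gonad regulator, had a member centred at -3660 bp from the start at 58.5%, 62.3% and 66.7% in reset libraries, over 1.12%, 1.69% and 2.43% in conventional ones. FOXL1, a gut mesenchyme factor, gained in the promoter, at 56.7%, 79.1% and 66.1%, and FOXA2, an endoderm pioneer factor, gained 1709 bp downstream of the start, at 56.8%, 63.4% and 60.3%. FOXD4 at 51.0%, 52.3% and 50% is uncertain, because near-identical copies of this gene exist and reads could have been placed on the wrong copy.

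The 2 GATA genes with a member, of 5, were GATA3 and GATA4. Of the ZIC and GLI genes, zinc finger factors of the hedgehog pathway and neural plate, 5 of 10 had a member, with ZIC1 holding 13 and ZIC4 8 within 5 kb of the body. Tissue-restricted bHLH genes had one in 17 of 44. Among these FERD3L, a neural bHLH gene, gained in the promoter from 0.719%, 1.23% and 1.27% to 57.9%, 62.1% and 66.3%, and OLIG2, of motor neuron and oligodendrocyte precursors, from 6.5%, 4.55% and 2.31% to 50.9%, 39.6% and 34.3%. Nuclear receptors had one in 5 of 37 and in 0 of 34 promoters, a count near the share of 1.13% over all coding promoters. The 5 were NR2F1, NR2F2, RARG, ESRRB and ESRRG.

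Of the WNT, FGF, BMP, GDF and hedgehog ligands 14 of 58 had a member within 5 kb of the body and 0 of 51 in the promoter, where the share over all coding genes was 1.13%. SHH, the hedgehog morphogen, had 5 members, the highest 5656 bp downstream of the start at 61.3%, 59.7% and 66.1% in reset libraries. BMP4 had its highest member at 50%, 66.9% and 73.4%. For receptors the count was 4 of 28 (FZD2, FZD7, FZD10 and BMPR2), and 0 of 27 in the promoter. At that share, counts of 0 in lists of this size are no result about the lists.

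Lists of other kinds are read against the background of 3.99%. Neurotransmitter receptor genes had a member in 7 of 78, 8.97%, among them CHRNA4 at the promoter. Voltage-gated channel genes had one in 2 of 60, 3.33%, KCNA4 and CACNA2D4, and in 1 promoter of 57, that of KCNA4, 1.75%. For germ cell and meiosis genes it was 1 of 33, 3.03%, which was DMRT1, a testis-determining factor. The highest member counted for DMRT1 was intergenic, with its centre 129804 bp from the start. Both lists were near the background. For the zinc finger genes of chromosome 19 it was 1 of 196, 0.510%, at ZNF578. Clustered protocadherins, ribosomal protein genes and respiratory chain genes had none among 39, 74 and 71. Imprinted genes had 3 of 30. These were WT1, DLX5, which is also a homeobox gene, and RTL1. The RTL1 promoter window, centred at -1442 bp from the start, lies in the noncoding genes MEG8 and MIR493HG. It went from 14.04%, 13.8% and 2.22% to 55%, 55.7% and 62.8%.

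Of the factors linked to the naive state, 3 of 16 had a member within 5 kb of the body, beside 3.99% of all coding genes, and 0 of 15 had it in the promoter, beside 1.13%. A count of 0 in so few promoters is near that share. All 3 also belong to the transcription factor lists. TBX3, a T-box factor, had its highest member at -4521 bp from the start, with 31.3%, 45.2% and 50% in reset libraries. The ESRRB window was at 40%, 45.1% and 47.2% and lies at -64979 bp from the annotated start. The GBX2 window, 5528 bp downstream, was at 52.4%, 40.5% and 44.6%. These windows were under 20% in each conventional library.

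The genes with the most members were TBX5 with 22, EN1 and HAND2 with 19 each, and GATA3 with 15. These counts use the assignment by overlap or else by nearest start, at any distance. Within 5 kb of the body TBX5 held 13, EN1 10, HAND2 9 and GATA3 11, while ZIC1 held 13 and HOXD3 and HOXA3 12 each. TBX5, a heart and forelimb regulator, held the longest run: 11 adjacent members, chr12:114839001-114850000, with 398 CpGs. Over the run the conventional libraries were at 4.37%, 3.85% and 2.77% on 1117 to 1235 calls each. The reset libraries were at 49.1%, 48.5% and 51.4% on 810 to 1106 calls. The window of the TBX5 start was itself a member, at 36.4%, 30.1% and 31.7% in reset libraries. It had the lowest mean reset level of the 11, and the next window downstream had the highest, at 67.5%, 53.5% and 65.4%.

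At EN1 the window of the start was at 24.0%, 17.9% and 10.3% in reset libraries and the next one downstream, with 119 CpGs, at 0%, 1.38% and 1.49%. The windows on either side of this pair were members, at 63.0%, 69.6% and 77.3% upstream and 52.0%, 30.4% and 34.0% downstream. HAND2, a heart and limb bHLH factor, had the same order: 18.1%, 10.53% and 14.7% at the start, 6.58%, 6.76% and 6.94% in the next window and 64.9%, 58.3% and 43.7% 2 kb downstream. At GATA3, a T-cell and trophoblast factor, the start window stayed at 2.42%, 1.56% and 0.758%, and the window 4 kb downstream reached 54%, 70% and 70.7%. In conventional libraries all of these windows were under 7%.

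**Figure D5:**
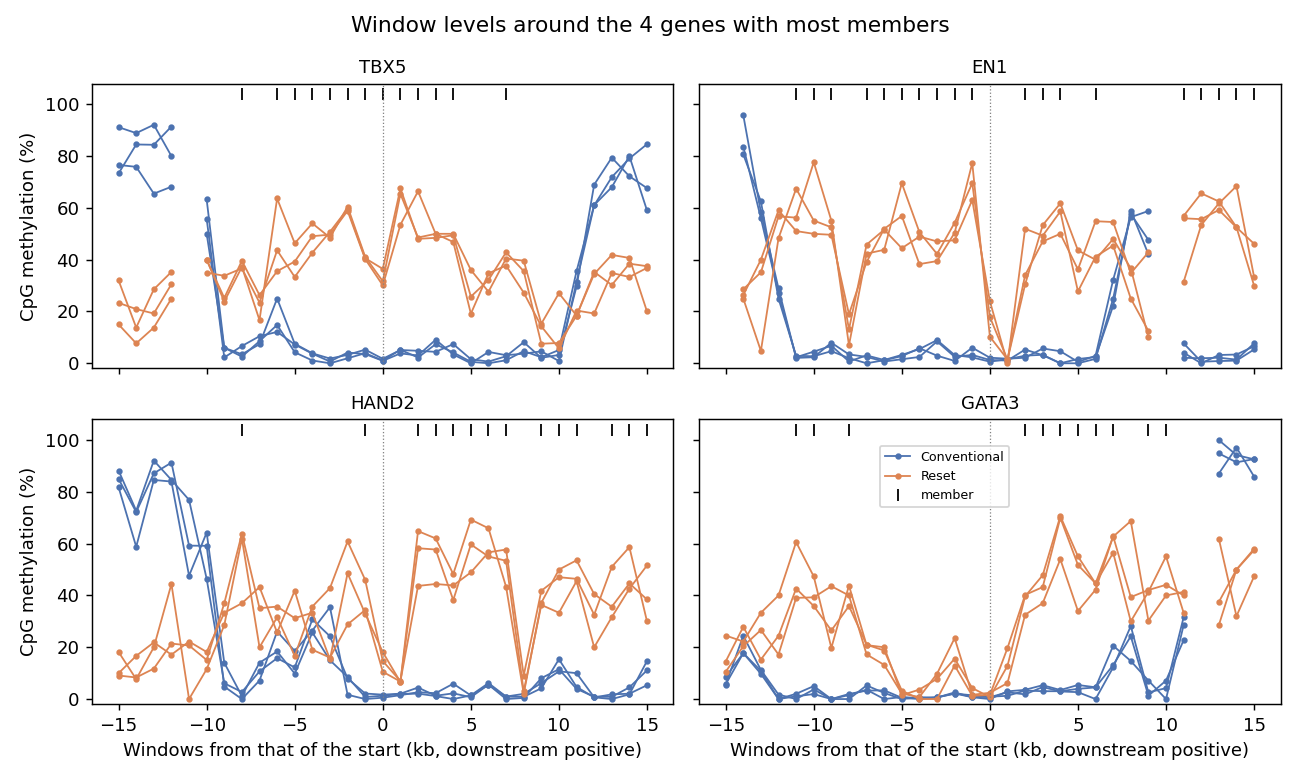
CpG methylation (%) of kept 1-kb windows by distance from the window of the start (kb, downstream positive) at TBX5, EN1, HAND2 and GATA3, 1 line per library, with ticks above for members. Lines break where a window had too few calls. The mean reset level is 32.7% in the TBX5 start window and 1.58% in that of GATA3, where the upstream windows at 3 to 5 kb are also low, at 1.48 to 5.87%.

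Further long runs lay at SIM2 with 8 windows, BARX1 with 8, TBX20 with 8 and SIM1 with 7. SIM2, a bHLH-PAS factor on chromosome 21, was at 3.57%, 3.56% and 3.47% in conventional and at 53.1%, 53.4% and 57.8% in reset libraries over its run. BARX1, a stomach and tooth homeobox gene, was at 53.4%, 50.4% and 57.2% in reset libraries and TBX20, a cardiac T-box gene, at 51.0%, 50.6% and 48.6%. The SIM1 run was the highest of the 5, at 58.0%, 59.8% and 59.2%. Summed over such runs the reset libraries lay within 7 points of each other.

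Coverage was compared between the groups. Calls per CpG over members, relative to all kept windows of the same library, were 0.772, 0.750 and 0.773 in conventional and 0.729, 0.773 and 0.760 in reset libraries. The means were 0.765 ± 0.0129 and 0.754 ± 0.0225 (SD, n = 3), which overlapped, and a two-sided exact permutation test of the difference, -0.0109, gave p = 0.7, where 0.1 is the smallest p for 3 against 3. When 20 or 30 calls were required of each library the difference was -0.0373 and -0.0655, each with an exact permutation p of 0.1. That is the smallest p the design allows, so no setting could pass a threshold of 0.05, and the call minimum is also part of the rule that chose the members. Over other low windows the ratio was 0.631 to 0.652 in conventional libraries and 0.670 to 0.801 in reset ones, so relative coverage was higher in reset cells there. The part of coverage in the members' levels was not tested.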

How the data were processed

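Genomic DNA had been sonicated, ligated to methylated adaptors and treated with bisulfite. The authors trimmed reads (Trim Galore) and mapped them on GRCh37 using Bismark, version 0.9.0 in the submitters' processing notes, while the paper names another version. Removal of duplicate reads is not given in the sources used here. The files deposited by the authors give, for each CpG cytosine and strand, a count of methylated and a count of unmethylated calls, not normalized. The deposited percent column was not used, and levels were recomputed from the counts.

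Calls were summed over both strands in 1-kb windows. Prediction of CGIs used the GRCh37 sequence, and genes came from GENCODE release 44 mapped to GRCh37, with 1 canonical start per gene. Repeats were not annotated here, so their part is unknown. Members, gene lists and named genes were chosen with earlier results of these data known. Named genes were the 10 largest rises, the 5 longest runs, up to 4 promoters per list, the windows nearest each threshold and the 5 fullest 100-kb bins; others are said to be chosen after their values were seen, or stand in counts by list.

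No model was fitted across windows. Relative coverage was compared by an exact permutation test (scipy 1.17.1, numpy 2.4.6, Python 3.11.15). The window sums and the member rule were tested on simulated data. Correlations of the libraries' deviations between groups were -0.001 to 0.001, for equal and unequal replicate numbers. They showed no pairing but cannot exclude it, because counting error in single windows would also keep them small. Alternatives were other call minimums, thresholds, window offsets, CGI definitions, levels averaged over CpGs and leaving out each library.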

Additional observations from a re-analysis of the deposited data

Results flagged for a closer look

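The X chromosome was left out of the set by its autosomal rule. Of 463 X windows that were low in conventional cells, 39 met the same levels, 8.42%, which stands beside 4.55% of the autosomal low windows. This was flagged because it is signal outside the windows described above. The X windows included 9 windows in and upstream of SHOX, a skeletal growth gene, not all adjacent, and 3 at the promoter of HTR2C, a serotonin receptor gene. Over the SHOX windows the ratio of reset to conventional coverage, scaled for library depth, was 0.338 to 0.874. Over the 3 HTR2C windows it was 0.643 to 0.837, and the highest ratio among the 39 was 1.45, nearest to PLS3. The median ratio over autosomal members was 0.9615, and the part of coverage in the X share was not tested. The HTR2C window nearest its start was at 2.37%, 1.71% and 5% in conventional and 49.2%, 66.96% and 50.8% in reset libraries. These genes were chosen after their values were seen, and the difference between X and autosomes was not tested. The paper describes X CGIs of intermediate methylation in conventional cells. Windows at such levels do not count as low, so the X and autosomal shares have unlike denominators.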

How the results depend on the processing

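Of 98 values recomputed under other settings, 63 were counted as kept, 34 moved and 1 changed sign. Kept meant inside the 95% binomial interval for shares and within the SD of library medians for the median level. That interval treats windows as independent, which clustered windows are not, so kept and moved are only a rough sorting. For the member number it meant a wide fixed factor, which still took in 983 and 1807. For the coverage difference it meant only the same sign, which still took in -0.0655. A threshold of 40% in every reset library gave 606 members, and the other thresholds, minimums and offsets gave 983 to 1516. The member share of low windows was 4.24% with at least 30 calls, 4.14% with conventional under 10%, 1.88% with reset at 40% or more and 4.19% as a mean over CpGs. The median reset level was 45.9% with conventional under 10%, 53.1% with reset at 40% or more and 46.1% as a mean over CpGs. Overlap with long CGIs was 68.8% with at least 20 calls, 73.8% with 30, 74.9% with conventional under 10% and 76.2% with reset at 40% or more, and 83.96% counting all CGIs. With conventional under 10% and with reset at 40% or more, 0.692% and 0.323% of low windows within 1 kb of a coding start were members, and 57.7% and 55.6% of members were assigned to transcription factor lists. At 2 to 10 kb the share was 5.77% with reset at 40% or more and 12.2% as a mean over CpGs. The last 3 quantities were added after the data were seen.

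Without 1 library at a time the number of members was 1471 to 1807, the share of low windows 4.52 to 5.58%, the median reset level 43.2 to 45.2%, the CGI overlap 62.9 to 65.4%, the share within 1 kb 0.856 to 1.13% and at 2 to 10 kb 13.1 to 15.98%. Here the call minimum was asked only of the remaining libraries. Fewer reset libraries make the rule easier to meet. The coverage difference ranged from -0.0199 to 0.0016, the last without reset replicate 1, whose cause was not tested. With the replicate number as a block the difference was -0.0109 (exact permutation p = 0.75, smallest possible 0.25), and it changed no call. With median calls per member of 75 to 107, a single window near a threshold can fall on either side by counting error alone.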
